A study of Mus musculus with 2 samples.

Results

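The intervals described here are the very high rows of a TCF1 chromatin immunoprecipitation (ChIP) map in mouse γδ thymocytes. They were chosen by their height on the 19 autosomes: the score that the authors gave each interval, divided by its width and multiplied by 50 bp, had to be 90 or more. The count was 390 of 101261 listed autosomal intervals (0.385%), or of 104683 intervals on all chromosomes. The rule itself used score and width, so heights, widths and scores below are a description and carry no test. A stretch of 200 kb on chromosome 1, with 29 listed intervals of which 3 were as high, was left out by the rule. The rule also split them into 3 classes. The lower class held 292 intervals with heights from 90.1 to 132.5, the middle class 79 from 133.3 to 944, and the top class 19 of 1000 or more, from 1026 to 8712. For comparison, the median height of all these autosomal intervals was 34.4.

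The map came from 1 library of γδ T cells sorted from thymus (γδ-positive, CD24-positive, CFP low or negative). The mice were C57BL/6 with the genotype TCRbeta KO.Sox13tg+.Sox13 ECFP KI/+, so the cells lacked the TCRβ gene, carried a Sox13 transgene and held an ECFP reporter in 1 Sox13 allele. An input library without antibody, of the same strain, genotype and cells, was part of the study but was not analysed here. The sources used here do not give the promoter of the transgene, the age of the mice or the number of animals pooled. The stated purpose was to place TCF1 on chromatin genome-wide in cells at the outset of effector programming. A list of intervals holds no expression, so the labelled cell type could not be set against markers. With 1 library and no replicate, no test was made, and no read numbers are known for the intervals. Percentages below carry exact Clopper-Pearson intervals (95%), which cover counting error only and treat intervals as independent.

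TCF1 is an HMG-box transcription factor that binds short DNA motifs in thymocytes, works with β-catenin and with Groucho-type corepressors, and is needed at several steps of T cell development. In a ChIP experiment, reads gather where the factor sits. They also gather where the reference genome holds fewer copies of a sequence than the cells do, because reads from all copies then fall on the few that are assembled. Ribosomal DNA is the textbook case: cells carry it in long tandem arrays, while an assembly may hold a single copy. Satellite repeats around centromeres, repeats below telomeres and recently duplicated gene families are others. An input library measures this background, and without it these intervals hold binding and copy number together, which cannot be told apart here.

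The 2 highest intervals lay in the ribosomal DNA stretch of chromosome 17, the place of Rn45s, the precursor of the ribosomal RNAs. The first, at chr17:39979751-39984200, was 4450 bp wide and had a height of 8712, 253 times the autosomal median. The second, at chr17:39984701-39985900, was 1200 bp wide with a height of 6726, or 196 times that median. Only 500 bp lay between them, and together they covered 5650 bp. They were also the only 2 intervals listed in the stretch, so every listed interval there was very high. The next listed interval came 11300 bp further on. The 6 other listed intervals within 100 kb had heights from 3 to 33.7, with a median of 16.2, below the autosomal median. The 2 intervals held 4.20% of the summed score of the autosomes and 55.2% of the score of all 390 very high intervals. All 390 together held 7.60% of the autosomal score, and the others held 3.55% of what was left once these 2 were taken out.

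Of the other 17 intervals of 1000 or more, 7 lay in a single run at the start of chromosome 11. A run here means very high intervals with at most 20 kb from one to the next. This one, at chr11:3023801-3093550, held 13 members in 69750 bp, and it began 2800 bp from the first listed interval of the chromosome. Along the run the heights were 466, 1421, 663, 1287, 944, 2129, 1147, 1045, 193, 3491, 307, 344 and 2744. Members of the top and the middle class were interspersed, with no steady slope from one side to the other. Their widths ran from 100 to 600 bp with a median of 200 bp, and together they covered 5.02% of the run. No listed interval of ordinary height lay between them, whereas 10 of ordinary height lay within 100 kb of the run, at a median of 40.4. The pattern is thus one of separate spikes over a stretch with nothing else listed. Sfi1, a gene known to be repeated in the mouse genome, is known from the start of this chromosome. Whether the run covers Sfi1 was not tested, since no gene table of this build was used.

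The remaining 10 intervals of 1000 or more were spread over 7 chromosomes. Chromosome 16 held 3 of them, at chr16:57391301-57391950 (height 3479), chr16:11143851-11144450 (3118) and chr16:17222151-17222550 (1391). Chromosome 17 held 2, at chr17:36368001-36368550 (1861) and chr17:13743801-13744050 (1114). All 5 were at most 650 bp wide, far shorter than the wide ribosomal interval. The next were chr11:108872851-108873500 (3337), chr5:147072351-147073100 (1687) and chr3:5860151-5861000 (1638). The last were chr1:197067751-197067950 (1362) and chr4:118221001-118221500 (1026). Of these 10, the ones on chromosomes 1, 3, 5 and 16, the one on chromosome 11 and the first on chromosome 17 had no other very high interval within 20 kb. Their surroundings were ordinary. The interval chr16:57391301-57391950 was 97.5 times as high as the median of the 9 listed intervals around it, whose highest reached 55.9. At chr11:108872851-108873500 the ratio was 95.6 over 15 neighbours, with a highest neighbour of 57.6 and no other listed interval for 45500 bp. The lowest of the ratios among the 10 was 24.9, at chr4:118221001-118221500, where a second very high interval lay 250 bp away.

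**Figure D1:**
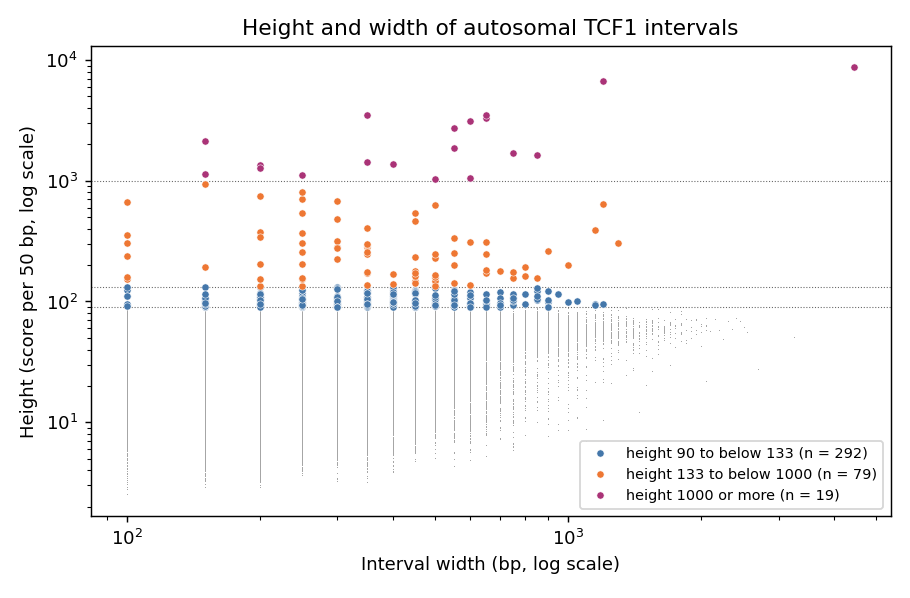
Height (score per 50 bp, log scale) against interval width (bp, log scale) for the 390 very high intervals, coloured by height class, with all other autosomal intervals as grey points; dotted lines mark the limits of the classes. The widest point, at 4450 bp, is also the highest, while most other points of 1000 or more lie between 150 and 850 bp.

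Very high intervals were wider than the list at large. The median width was 400 bp in the lower class, 400 bp in the middle class and 550 bp in the top class, against 200 bp in the rest (order-statistic intervals 350 to 400, 350 to 450, 250 to 650 and 200 to 200 bp). Width and height go together in the list as a whole, where intervals of 100 or 150 bp had a median height of 27.5 and those of 300 to 500 bp one of 42.3. The DNA fragments of the library were 300 to 500 bp long, per the labels' protocols. Widths under 300 bp were found for 107 of the 390 (27.4%, 23.1 to 32.2%) and for 68.0% of the rest.

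A small set was both narrow and high. At 100 or 150 bp, 38 of 35487 autosomal intervals (0.107%) were very high, against 181 of 24905 (0.727%) at 300 to 500 bp. The 4 highest of the narrow ones all lay in the chromosome 11 run, and the top one, chr11:3035551-3035700, reached 2129 in 150 bp. Of the 8 highest, 6 were in that run and the other 2 in a run on chromosome 17. Beyond these 2 runs, the narrow intervals came to at most 160, the height of chr7:46530151-46530250.

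Only 11 very high intervals were 1 kb wide or more, 2.82% against 0.972% of the rest. Besides the 2 ribosomal ones, they included a pair on chromosome 10, at chr10:57694551-57695850 (1300 bp, height 307) and chr10:57686951-57688100 (1150 bp, 389). Others were chr4:118219551-118220750 (1200 bp, 644) and chr8:19784401-19785400 (1000 bp, 199). The 5 widest of the lower class had heights from 92.7 to 101. They were chr17:35576101-35577300, chr4:146649201-146650350, chr7:138079251-138080400, chr19:6633651-6634700 and chr10:40185101-40186100. The wide intervals with the lower heights thus sat close to the threshold of 90.

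Heights thinned out smoothly across the threshold of 90 and then left a long, sparse tail. There were 164 intervals from 85 to below 90 and 89 from 90 to below 95. From 90 to below 100 there were 158, from 100 to below 110 there were 72, from 110 to below 120 there were 32, and from 120 to the end of the lower class there were 30. Above that the counts stay small over wider ranges: 36 from the start of the middle class to below 200, 30 from 200 to below 400 and 13 from 400 to below 1000. The interval just inside the threshold was chr4:46627601-46628050 at 90.1. Just outside was chr1:40579851-40580050, which falls short of 90 only in the decimals of the deposited score and would count with scores rounded to 0.25, giving 391. Between the lower and the middle class the nearest values were 132.5 (chr1:187282251-187282450) and 133.3 (chr2:22600451-22600650), so no gap marks that limit. At 1000 they were 1026 and 944, the latter inside the chromosome 11 run.

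In the middle class, the 10 highest had heights from 539 to 944. The chromosome 11 run gave 2 of them (944 and 663), and chromosome 17 gave chr17:13498551-13498750 (748), chr17:13743351-13743650 (675) and chr17:3084251-3084500 (539). The others were chr19:61275351-61275600 (807), chr9:110183801-110184050 (704), chr4:118219551-118220750 (644), chr13:44964751-44965250 (627) and chr10:80641251-80641700 (543). Their settings differed. The interval on chromosome 10 lay in a crowded stretch with 93 other listed intervals within 100 kb, at a median height of 43.6. The one at chr17:13498551-13498750 had 5, the nearest of them 24900 bp away.

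Very high intervals were isolated about as often as other intervals. No other listed interval lay within 10 kb of 104 of the 390 (26.7%, 22.3 to 31.4%), against 28305 of the 100871 lower autosomal intervals (28.1%, 27.8 to 28.3%). From the lower class to the top the values were 73 of 292 (25%, 20.1 to 30.4%), 27 of 79 (34.2%, 23.9 to 45.7%) and 4 of 19 (21.1%, 6.05 to 45.6%). Each of these intervals includes the share of the rest. A listed interval within 1 kb was present for 104 of the 390 as well (26.7%), and for 30.7% of the rest. None of the 390 was the only listed interval within 100 kb, which allows a share of up to 0.769% by 3 counts and 0.941% by the exact interval. In the rest 866 (0.859%) were, so no difference was detectable.

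Within 100 kb, the surroundings of very high intervals mostly had ordinary heights. For each member the median height of the other intervals listed up to 100 kb away was taken. The middle value was 36.8 for the lower class (order-statistic interval 35.4 to 38.1) and 34.9 for the middle class (31.4 to 40.1). The same measure over the rest of the list was 36.6. For the 19 of 1000 or more it was 41.2 (34.0 to 466), a wide interval because members of the chromosome 11 run are each other's neighbours. Without that run, 12 intervals of 1000 or more remained, with a value of 34.4 (23.8 to 41.2). Within 20 kb in place of 100 kb, the value for the top class was 307 over the 17 that had a neighbour. Of the 19, 11 had another very high interval within 20 kb, and no 20 kb value was taken for the rest. Other very high intervals were then left out of the neighbours within 100 kb. From the lower class to the top, the values became 36.3 (35.05 to 37.6), 31.4 (29.5 to 34.9) and 34.1 (34.0 to 38.25). The interval of the middle class thus lay below the 36.6 of the rest, whose neighbours were not filtered this way. Those of the lower and top classes included 36.6. The median ratio to all listed neighbours within 100 kb was 2.74, 5.75 and 46.9 in the 3 classes. The choice by height sets this spread in large part.

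**Figure D2:**
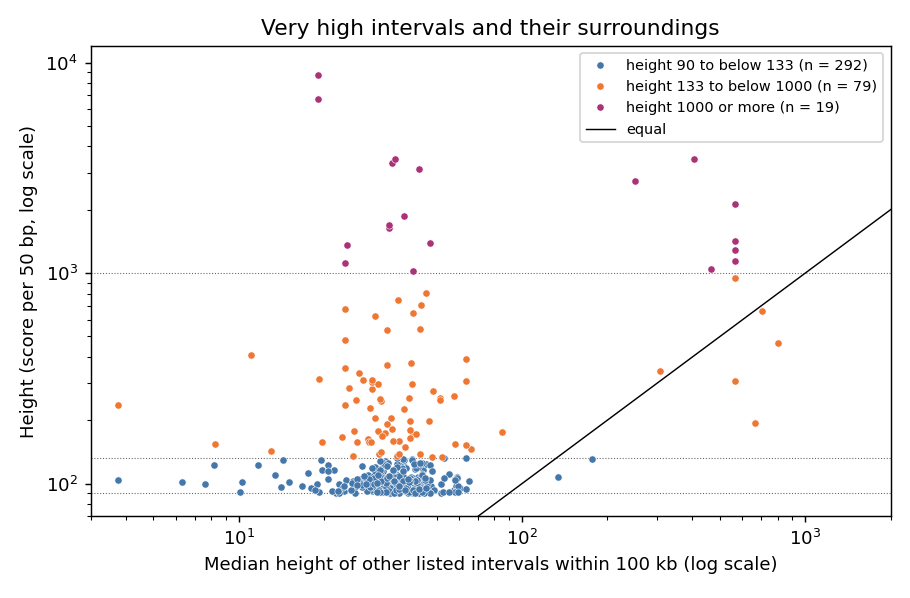
Height of each of the 390 very high intervals (log scale) against the median height of other listed intervals within 100 kb (log scale), coloured by height class; the black line marks equal values and dotted lines mark the limits of the classes. Most points stand above the line of equal values, with neighbour medians of 36.8, 34.9 and 41.2 from the lower class to the top. With other very high intervals left out of the neighbours, the medians were 36.3, 31.4 and 34.1. The points furthest right are members of the chromosome 11 run.

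A few very high intervals stood in stretches where the other listed intervals were very low. Examples are chr16:61055951-61056400 with a height of 235 and chr12:79451651-79452000 with a height of 410. The 4 listed neighbours of each had medians of 3.75 and 11.04, so the ratios were 62.8 and 37.1. In the lower class, chr3:60539851-60540150 had a height of 104 beside 3 neighbours with a median of 3.75, a ratio of 27.7. These 3 were picked after their values were seen, for their ratios.

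The share of intervals near a chromosome end was higher in each higher class. Without the chromosome 11 run, however, the middle and top classes had nearly equal shares, as given below. The very start of each mouse chromosome in such assemblies stands for unsequenced centromeric DNA, so the first listed interval lies on the centromere side. Within 1 Mb of the first or last listed interval lay 7 of 292 in the lower class (2.40%, 0.969 to 4.88%), 12 of 79 in the middle class (15.2%, 8.10 to 25.03%) and 8 of 19 in the top class (42.1%, 20.3 to 66.5%). In the rest it was 1716 of 100871 (1.70%, 1.62 to 1.78%). The lowest class thus sat close to the rest. Of the 27 in all, 22 were on the side of the first interval and 5 on that of the last.

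The chromosome 11 run supplied 13 of the 27. Without it the shares were 6 of 73 (8.22%, 3.08 to 17.0%) in the middle class and 1 of 12 (8.33%, 0.211 to 38.5%) at 1000 or more, and 14 of 377 (3.71%, 2.04 to 6.15%) over all. The 1 of 12 was chr1:197067751-197067950, which ended 116200 bp before the last interval of its chromosome. On chromosome 19 the interval of height 807 ended 58300 bp before the last. The start of chromosome 9 held 3, at chr9:3006551-3006850 (131), chr9:3023751-3024500 (177) and chr9:3258601-3258900 (316), and the first of them was itself the first listed interval. Near the start of chromosome 17 lay 3, at chr17:3077501-3077750 (367), chr17:3083801-3084050 (107) and chr17:3084251-3084500 (539), the first of them 33600 bp from the first listed interval. Near that of chromosome 6 lay 1, chr6:3132601-3133100 (167), at 88250 bp from the first. At the other side, chr13:120276851-120277100 (104) was the last listed interval of its chromosome.

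**Figure D3:**
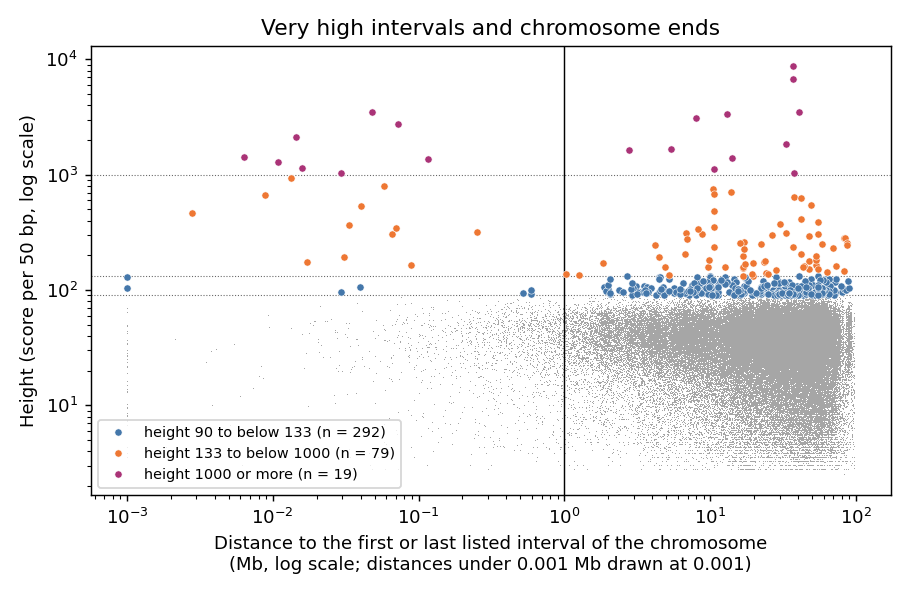
Height (log scale) against the distance to the nearer of the first and last listed interval of the chromosome (Mb, log scale) for the very high intervals, coloured by class, with all other autosomal intervals in grey; the vertical line marks 1 Mb. Of the 98 orange and purple points of the middle and top classes, 20 lie to the left of the line, whereas 7 of the 292 blue points do. The chromosome 11 run supplied 13 of the 20. Without that run the counts were 6 of 73 in the middle class and 1 of 12 in the top class.

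Some very high intervals lay in runs, a measure for which no share over the rest was taken. Within 20 kb of another one lay 31 of 292 (10.6%, 7.33 to 14.7%) in the lower class, 28 of 79 (35.4%, 25 to 47.0%) in the middle class and 11 of 19 (57.9%, 33.5 to 79.7%) in the top class. Outside the chromosome 11 run the last was 4 of 12 (33.3%, 9.92 to 65.1%). Counted as places, with each run as 1, the 390 gave 343: 320 single ones, 15 pairs and 8 runs of 3 or more. Next in number of members came chr17:13743351-13745750, where 5 members stood within 2400 bp, and a run of 5 lower ones on chromosome 11, described last. On chromosome 17 the heights along the run were 675, 1114, 237, 353 and 484, over 9 ordinary neighbours at a median of 19.1.

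The other runs of 3 or more differed in make-up. On chromosome 10, chr10:57686451-57699850 held 4 with heights from 132 to 389 and a median width of 700 bp. On chromosome 8, chr8:56199151-56208700 held 4 from 106 to 199, with 3 ordinary intervals between them. The run chr4:118214401-118221500 held 3, at 90.9, 644 and 1026, 1 in each height class. Chromosome 17 had 3 near its start, described above, and chr11:116606851-116607950 held 3 within 1100 bp, from 98.2 to 136. The last, chr11:99488951-99520300, was unlike them: its 5 members spanned 31350 bp, all between 92.1 and 107, in a stretch whose 30 ordinary intervals had a high median of 56.3.

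**Figure D4:**
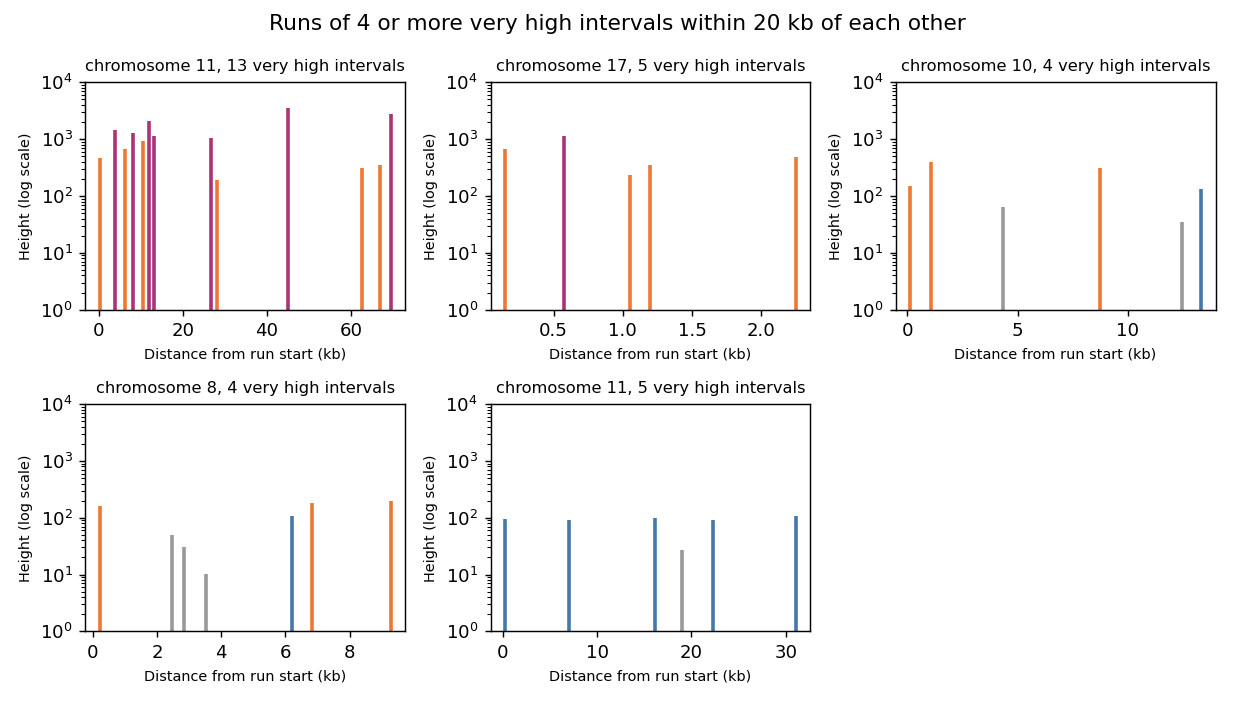
Height (log scale) of every listed interval in the 5 runs with 4 or more very high intervals, against the distance from the start of the run (kb); purple marks the top class, orange the middle, blue the lower and grey ordinary intervals. The chromosome 11 run of 13 spans 69750 bp with no grey line inside it, while the run of 5 on the same chromosome stays between 92.1 and 107.

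Some groups appeared only on a wider scale. Joining very high intervals up to 500 kb apart, a distance chosen after the data were seen, gave 22 groups of 3 or more, and the following were picked after their values were seen. At chr8:19698751-20032550, 6 members from 108 to 260 lay over 333800 bp, with 9 ordinary intervals in or within 100 kb of the group, at a median of 16.5. At chr4:145426601-146779000, 7 members from 94.7 to 304 lay over 1352400 bp with an ordinary median of 19.4. At chr1:85144151-85336850 there were 3, from 101 to 283, with an ordinary median of 15.1. In these 3 groups, as in 9 of the 22, the ordinary level lay below the autosomal median of 34.4. In the other 13 it lay above that median, as in the group chr11:99452001-99712800, with 9 members from 92.1 to 107 and an ordinary median of 55.0. Which genes or repeats lie in these groups was not analysed here.

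Every autosome held very high intervals. Per 1000 listed intervals the count ran from 2.61 on chromosome 13 (10 members, 1.25 to 4.79) to 6.32 on chromosome 17 (33 members, 4.36 to 8.87), with chromosome 18 at 5.69 and chromosome 11 at 5.57. Chromosome 11 had the most in number, 42, but only 22 places, because of its runs. The 19 of 1000 or more were on 7 chromosomes: 8 on chromosome 11, 4 on chromosome 17, 3 on chromosome 16, and 1 each on chromosomes 1, 3, 4 and 5. Chromosome 14 had 11 members, all in the lower class. Outside the rule, X carried 7 intervals of 90 or more among 3200, with a highest of 583 and none of 1000 or more, and Y carried 1 among 193, at 230.

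The order of the deposited list gave a further value per interval. The rows are sorted neither by position nor by score, and the sources used here do not say what orders them. Across autosomal intervals, place in the list went with width (Spearman rho -0.75 over 101261 intervals that share 1 library) and hardly with height (rho -0.09). The very high intervals were over the whole list, from line 2 to line 104341. The first 10 lines held 7 of them, among them chr17:13498551-13498750 (line 2), chr16:11143851-11144450 (line 3), chr16:57391301-57391950 (line 6) and chr16:17222151-17222550 (line 7). The ribosomal intervals were at lines 632 and 7996, so the highest signal of the map was not at the top.

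Within the first 1000 lines lay 11 of 292 (3.77%, 1.90 to 6.64%), 16 of 79 (20.3%, 12.04 to 30.8%) and 5 of 19 (26.3%, 9.15 to 51.2%), against 880 of the rest (0.872%, 0.816 to 0.932%). Since place went with width, the same was taken at widths of 300 to 500 bp, where it was 3 of 143 (2.10%, 0.435 to 6.01%), 6 of 34 (17.6%, 6.76 to 34.5%) and 1 of 4, against 552 of 24724 (2.23%, 2.05 to 2.42%). At these widths the share of the lower class was near that of the rest, and that of the middle class was higher. Members of a run were counted singly here, so they are not independent. Examples are chr8:56199151-56199600 (line 27) and chr8:56205751-56206200 (line 10). At 550 to 900 bp it was 8 of 65 (12.3%, 5.47 to 22.8%), 7 of 17 (41.2%, 18.4 to 67.1%) and 3 of 8 (37.5%, 8.52 to 75.5%), against 238 of 6337 (3.76%, 3.30 to 4.25%), so there all 3 classes lay above the rest. In the chromosome 11 run, where 8 of 13 members were narrower than 300 bp, the median line was 66216. Its 3 members of 300 to 500 bp had a median line of 15802, against 25584 for the rest at those widths. None of the 13 was in the first 1000 lines, a count too small to set against the share of the rest. Of its narrow members, chr11:3035551-3035700, with a height of 2129, stood at line 97979 of 104683.

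**Figure D5:**
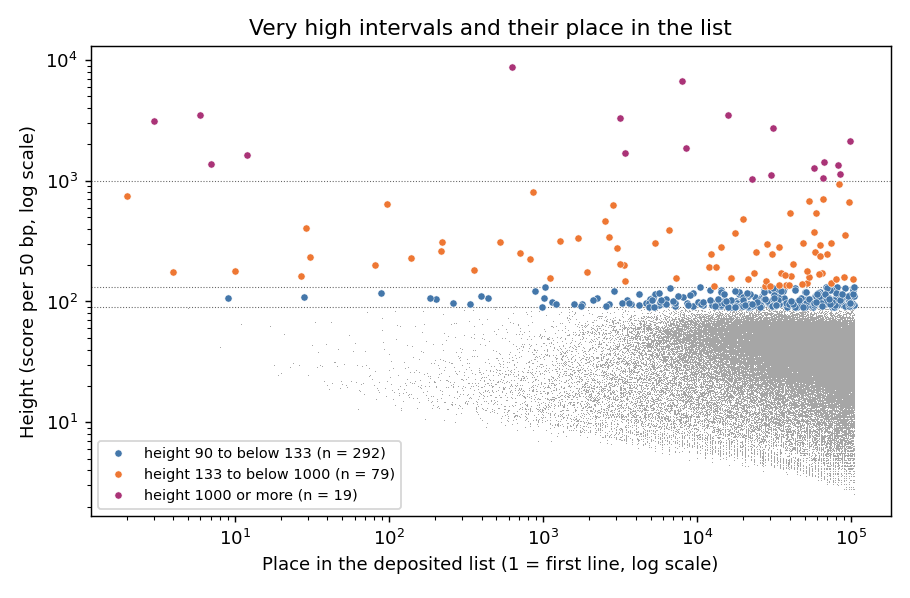
Height (log scale) against place in the deposited list (1 is the first line, log scale) for the very high intervals, coloured by class, with all other autosomal intervals in grey. Points of 1000 or more lie at both sides, from line 3 to line 97979, and the 2 highest are at lines 632 and 7996.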

How the data were processed

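The authors deposited a score for each interval of the TCF1 library, in a list without column names. Coordinates are mm9, as the submitters' processing notes name it. The sources used here do not say which aligner and peak caller were used, at what threshold, whether the input entered, or what the score measures. Per the labels' protocols, DNA from 1000000 formaldehyde-fixed cells was amplified for 17 PCR cycles, which can multiply single fragments.

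Positions are counted from 1, with ends read as inclusive. Height was the deposited score divided by width and multiplied by 50 bp. Distances are gaps between interval edges, and chromosome ends are the first and last listed intervals, not the assembly's ends. A count of 0 is given with the share that 3 counts would make. No sequence or gene table of mm9 was used, so no gene was assigned except Rn45s, whose stretch came with the choice of members, and no sequence is shown.

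Members, height limits and measures were chosen with earlier results of these data known. Intervals are named by position: all of 1000 or more, the 10 highest and 5 widest of the middle class, the 5 widest of the lower class, runs of 3 or more, the ribosomal stretch and those nearest each limit; others are named for their place in a described pattern and were picked after their values were seen. The list's order and the groups within 500 kb were added after the data were seen. Simulated intervals were used to check the counts of members, isolated members, members near an end and runs, and the median height of surroundings. The simulated background was evenly spaced and of equal width, unlike the list, and the other measures were not checked. Computation used Python 3.11.15 (pandas 2.3.3, numpy 2.4.6, scipy 1.17.1), and plots matplotlib 3.10.9.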

Additional observations from a re-analysis of the deposited data

How the results depend on the processing

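Of 91 alternative values, 63 stayed near the main one and 28 moved. Near meant within 1.5 times for counts and shares of score, and inside the 95% interval of the main value otherwise. The number of very high intervals, 390, became 848 at a threshold of 80 and 232 at 100. The share near an end became 12.1% over all and 7.88% in the lower class with 3 Mb in place of 1 Mb. With 1 place per run it became 3.50% over all and 20% at 1000 or more, and without the chromosome 11 run 3.71% and 8.33%. The share with no listed interval within 10 kb became 42.6% over all and 43.2% in the lower class with 5 kb. With 50 kb it was 2.82% over all and 3.08%, 2.53% and 0% in the 3 classes. With neighbours only from the upper 50% by score it was 43.1% over all and 43.5% in the lower class. These shifts follow from the distance or the list used. The share with another very high interval within 20 kb became 12.3% over all and 4.79% in the lower class with 5 kb, and 23.3% over all with 100 kb. After joining those within 1 kb it was 11.1% over all, 6.71% in the lower class and 20% in the middle one, and without the chromosome 11 run it was 33.3% at 1000 or more. The median height of the surroundings became 40.1 over all and 39.5 in the lower class within 20 kb, and 35.2 over all within 1 Mb. Neither distance was taken for the rest, and the cause was not tested. In the top class the median height of the surroundings went from 41.2 to 307 within 20 kb, still inside the wide interval of the main value. The share of the autosomal score, 7.60%, became 2.83% with height in its place and 3.55% without the ribosomal stretch. Leaving out the chromosome 11 run for isolation, runs, widths and surroundings, leaving other members out of the surroundings, and rounding the scores were chosen after the data were seen. No paired analysis was possible because the study made a single ChIP library. The unknown read depth limits every statement on low intervals.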
